A study of Mus musculus with 6 samples.

Results

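The angiopoietins, their Tie receptors, the phosphatase that acts on those receptors, and 3 angiopoietin-like genes were measured in lung endothelial cells (ECs) of mice. The 9 genes were Angpt1, Angpt2, Angpt4, Tek, Tie1, Ptprb, Angptl1, Angptl2 and Angptl4. They were taken by symbol from a list chosen with earlier results of these data known. All 9 were found among the 24063 symbols measured. ECs were isolated with magnetic beads carrying an antibody to CD31 from lungs of male C57BL6 mice, given in the labels as 8 weeks old. One group had a sham operation, and the other had pneumonectomy (PNX, removal of 1 lung) 7 days earlier, after which the remaining lung grows. The labels name no transgene or other agent for either group. Each group had 3 libraries, and each library was pooled from 2 mice, so the spread between single mice was not measured. Age differs between the labels and the methods of the study.

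Tek encodes Tie2, the receptor for the angiopoietins, and is made mainly by ECs. Angpt1, made largely by cells around vessels, activates Tie2 and keeps vessels stable, while Angpt2, made by ECs, competes with Angpt1 and can weaken or activate the receptor depending on the setting. Tie1 is a related receptor that binds no angiopoietin well and forms complexes with Tie2, and Ptprb encodes VE-PTP, an EC phosphatase that removes phosphate from Tie2. The angiopoietin-like proteins resemble the angiopoietins in sequence but do not bind Tie receptors. Angptl4 inhibits lipoprotein lipase and responds to fatty acids and low oxygen.

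The titles of replicates 1 and 2 of each group carry a re-used mark, and that of replicate 3 does not. Replicates 1 and 2 were therefore taken as an earlier deposit and replicate 3 as a later one, which the labels do not state. Counts of replicates 1 and 2 differed by little more than counting error, with a chi-square per degree of freedom of 1.75 in sham and 1.57 in PNX, against 67.9 to 86.4 for pairs with replicate 3. They were therefore summed and counted as 1 sample, which leaves 2 samples a group. Total counts ranged from 29526989 to 81282871 per library and were lowest in replicate 3 of both groups. Library levels are given in CPM, the count of a gene relative to the total of its library after TMM scaling between libraries. For Angpt1 and Tek they are those of the transcript with most counts, because the deposited table gives nearly the same counts to each of their transcripts. Tests were edgeR quasi-likelihood tests over 16598 genes with Benjamini-Hochberg adjustment, either with no block or with the deposit as a replicate block. They used counts summed over the transcripts of a symbol, so reads of Angpt1 and Tek entered more than once.

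Of the 9 genes, 8 had enough counts to be tested and Angpt4 did not. Without the block, 0 of the 8 genes were called at the study's thresholds (an adjusted p below 0.01 with a log2 fold change over 1 in either direction), where 0% of all genes were called. That edgeR fit gave 2076 genes at an unadjusted p under 0.05 and a lowest adjusted p of 0.0720, limma-voom also called 0 genes, and DESeq2 called 572. With the block, 0 of the 8 genes were called by the same rule against 5.12% of all genes (3.89% higher and 1.23% lower). At an adjusted p under 0.05 and any fold, the blocked edgeR fit had 5 of the 8 genes against 21.6% of all genes. The 4 lower in PNX were Ptprb, Tek, Angpt2 and Angpt1 (10.1% of all genes were lower by this rule), and the 1 higher was Angptl4 (11.5% of all genes were higher). On the transcript with most counts alone, Angpt1 was no longer under 0.05. The p-values below rest on 2 samples a group except where 6 libraries are named. The blocked fit leaves few degrees of freedom per gene. Its SE, interval and p therefore rest largely on variance estimated over all genes, and only in small part on a gene's own spread.

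**Figure D1:**
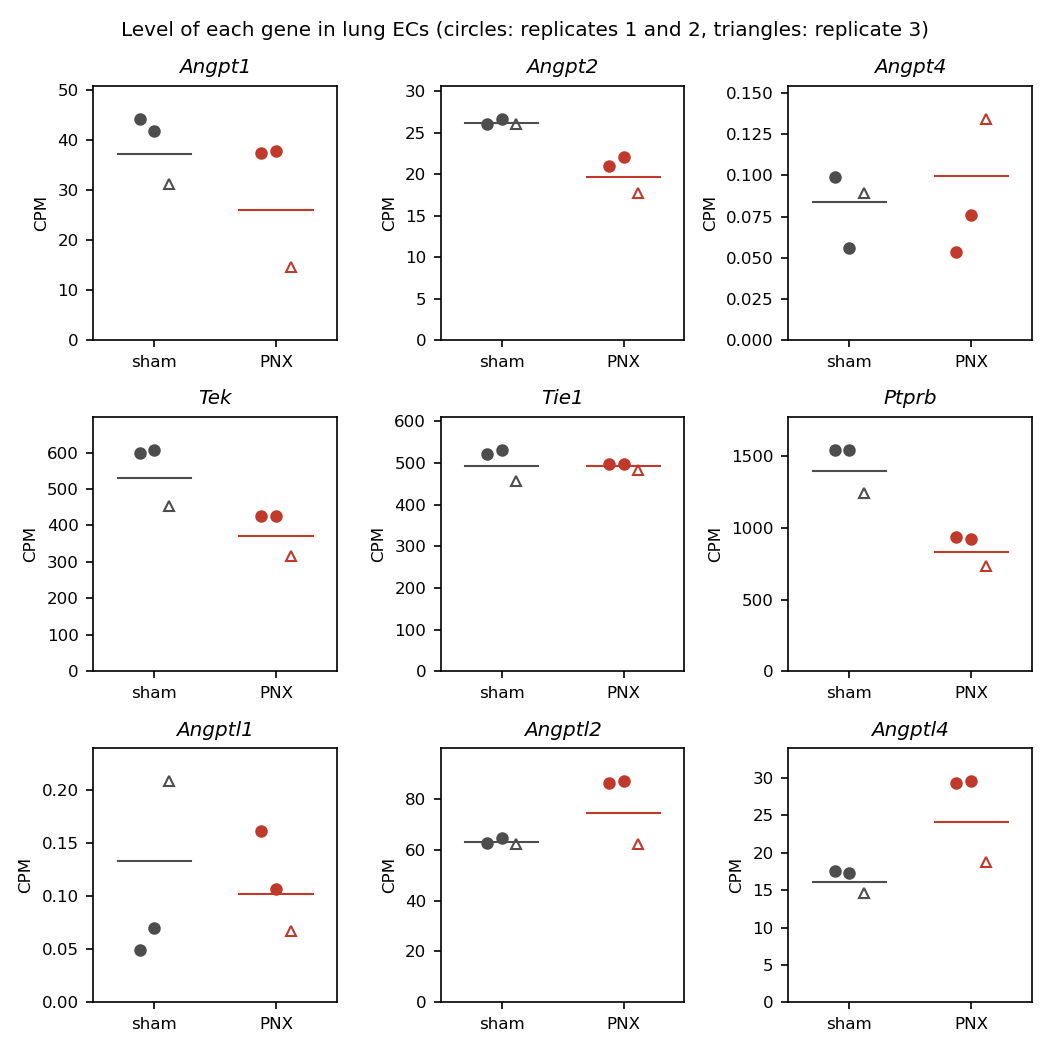
CPM of each of the 9 genes in each library (vertical axis from 0, a scale for each gene), with sham in grey and PNX in red. Circles are replicates 1 and 2, triangles are replicate 3, and lines are means of 2 samples; Ptprb, Tek and Angpt2 lie lower in all 3 PNX libraries and Angptl4 lies higher.

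Per transcript length, the receptors and the phosphatase were far more abundant than their ligands. In TPM (scaled by transcript length and library) of the transcript with most counts, sham libraries ranged from 293 to 346 for Tie1, from 260 to 327 for Ptprb and from 241 to 326 for Tek, so these 3 overlapped. Angptl2 followed at 44.9 to 47.3 TPM. Angpt1 (18.0 to 25.9 TPM), Angptl4 (19.1 to 23.3 TPM) and Angpt2 (18.2 to 18.9 TPM) lay below Angptl2, and Angpt1 overlapped the other two, while the lowest Angptl4 value was above the highest Angpt2 value. Angpt4 and Angptl1 did not exceed 0.237 TPM in any library. In PNX, Tie1 (315 to 318 TPM) no longer overlapped Tek (170 to 224 TPM) or Ptprb (156 to 195 TPM). The junction genes of ECs Cdh5 and Pecam1 averaged 926 and 892 TPM in sham and 812 and 887 TPM in PNX.

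Among the ligands, Angpt2 was lower after PNX in every library. Its level was 26.0, 26.6 and 26.0 CPM in sham replicates 1 to 3 and 21.0, 22.1 and 17.8 CPM in PNX replicates 1 to 3, and the groups did not overlap. The mean of 2 samples was 26.2 ± 0.618 CPM (SD) in sham and 19.7 ± 2.42 CPM in PNX. The edgeR log2 fold change was -0.41 without the block (SE 0.16, adjusted p = 0.397). It was also -0.41 with the block (SE 0.10, 95% interval -0.64 to -0.18, adjusted p = 0.0250), a PNX level 0.752 times that of sham. The adjusted p stayed under 0.05 in 8 of 10 blocked fits and was 0.0702 with DESeq2 and 0.0632 without PNX replicate 1 (edgeR). Angpt2 (chr8:18690263-18741562, minus strand, GRCm38) lies inside Mcph1, a gene of chromosome condensation on the opposite strand, with 0 shared exon bases. Mcph1 itself was higher in PNX in the blocked edgeR fit (log2 fold change 0.51, adjusted p = 0.0466), at 4.51 to 5.40 CPM in sham and 5.91 to 8.21 CPM in PNX, the direction opposite to Angpt2. The methods of the study name a stranded mRNA kit for the libraries, but whether counting used strand is not given in the sources used here.

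Angpt1 was also lower on average, but its PNX libraries differed widely among themselves. It stood at 44.1, 41.8 and 31.1 CPM in sham and at 37.3, 37.7 and 14.7 CPM in PNX, so the groups overlapped and PNX replicate 3 stood apart. The means were 37.2 ± 9.03 CPM and 26.1 ± 15.9 CPM (SD, 2 samples each). Without the block the edgeR log2 fold change was -0.51 (SE 0.47, adjusted p = 0.751). With the block it was -0.62 (SE 0.18, 95% interval -1.03 to -0.20, adjusted p = 0.0454), but the difference was -0.22 within the earlier deposit and -1.05 within the later one. Only 3 of 10 blocked fits had an adjusted p under 0.05, with a range from 0.0061 to 0.111 over edgeR and DESeq2. Leaving out sham replicate 1, sham replicate 2 or PNX replicate 1 gave 0.0841, 0.0605 and 0.111 (edgeR, blocked). On the transcript with most counts alone the log2 fold change was -0.59, with an adjusted p of 0.0679 (edgeR, blocked). Without PNX replicate 3 the log2 fold change was 0.00, and without PNX replicates 1 and 2 it was -1.32 (edgeR, no block). Angpt1 (chr15:42424723-42676977, minus strand) overlaps the antisense gene Gm17473, which shares 737 of its 5205 exon bases. If counting did not use strand, the Angpt1 counts may include reads of that gene.

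Angpt4, a further Tie2 ligand, was barely detected, with 8, 4 and 3 counts in sham and 4, 5 and 4 in PNX. The ratio of PNX to sham was 0.949 after scaling, with a 95% interval of 0.416 to 2.14 from counting error alone. A difference within that interval was not detectable at this depth. Angpt4 lies at chr2:151911210-151945337 (plus strand).

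The receptors of these ligands, Tek and Tie1, differed in what was seen after PNX. Tek was at 599.6, 606 and 454 CPM in sham and at 426, 426 and 315 CPM in PNX, and each PNX library lay below each sham library. The means were 530.5 ± 114 CPM and 371 ± 74.2 CPM (SD, 2 samples each). The edgeR log2 fold change was -0.52 without the block (SE 0.25, adjusted p = 0.512) and -0.51 with it (SE 0.11, 95% interval -0.78 to -0.25, adjusted p = 0.0192), which is 0.701 times the sham level. Replicate 3 was lower than the other libraries of its group in both groups, and the difference was -0.53 in the earlier deposit and -0.50 in the later one. All 10 blocked fits had an adjusted p under 0.05.

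Tie1 was at 521, 531 and 456 CPM in sham and at 498, 498 and 483 CPM in PNX. The PNX libraries lay within the sham range. The means were 492 ± 57.2 CPM and 492 ± 5.70 CPM (SD, 2 samples each). With the block the edgeR log2 fold change was 0.00 (SE 0.10, adjusted p = 0.988), and its 95% interval ran from -0.24 to 0.25, so changes of that size in either direction were not excluded. Tek and Tie1 lie on the same chromosome, at chr4:94739289-94874976 (plus strand) and chr4:118471191-118490061 (minus strand).

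The 250 bases before the start that RefSeq gives for each receptor gene are shown because Tek was lower in every PNX library and Tie1 was not. They are RefSeq sequences of GRCm38.p6, read 5′ to 3′ on the strand of the gene, at chr4:94739039-94739288 for Tek and chr4:118489850-118490099 for Tie1. A GENCODE transcript of Tie1 starts further upstream, so most of the Tie1 window lies inside the GENCODE span given above. Capitals mark GGAA or its reverse complement TTCC, the core letters bound by ETS factors, a family with many members active in ECs.
Tek: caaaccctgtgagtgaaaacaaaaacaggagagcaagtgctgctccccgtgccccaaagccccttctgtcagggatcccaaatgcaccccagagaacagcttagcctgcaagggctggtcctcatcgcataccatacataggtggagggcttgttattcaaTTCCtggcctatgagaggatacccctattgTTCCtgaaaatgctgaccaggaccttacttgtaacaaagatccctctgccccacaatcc
Tie1: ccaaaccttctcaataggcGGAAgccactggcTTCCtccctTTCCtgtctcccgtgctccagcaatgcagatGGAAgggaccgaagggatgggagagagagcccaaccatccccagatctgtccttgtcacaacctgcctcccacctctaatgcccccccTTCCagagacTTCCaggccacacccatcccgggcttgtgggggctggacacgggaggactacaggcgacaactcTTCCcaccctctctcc
The letters occur 2 times before Tek and 7 times before Tie1. They occur at least once in 93.4% of 32851 promoter windows of this length, with a median of 3, and 7 or more times in 3.82%. A match in these letters is a description of sequence and not a site bound in these cells. The windows of Angptl2, Angptl1 and Angpt4 held 2, 4 and 5 matches, and a link between matches and levels was not tested.

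Ptprb, the phosphatase, had the lowest fitted fold change of the 8 genes tested. It was at 1538, 1539.7 and 1240.2 CPM in sham and at 939, 921 and 732 CPM in PNX, and the groups were far apart. The means were 1394 ± 233 CPM and 833 ± 131 CPM (SD, 2 samples each). The edgeR log2 fold change was -0.74 without the block (SE 0.22, adjusted p = 0.278) and -0.74 with it (SE 0.11, 95% interval -1.002 to -0.48, adjusted p = 0.00405), or 0.598 times the sham level. The deposits gave -0.75 and -0.73, and all 10 blocked fits had an adjusted p under 0.05. With the 6 libraries as separate replicates the edgeR adjusted p was 0.0232 for Ptprb, but 0.0553 for Angpt2 and 0.110 for Tek. It was 0.546 for Angpt1, 0.868 for Tie1, 0.0777 for Angptl4 and 0.187 for Angptl2. That fit counts replicates 1 and 2 separately, though they differed by little more than counting error, so it may overstate the number of separate samples. Ptprb lies at chr10:116275523-116389535 (plus strand) and shares 0 exon bases with the small genes Gm47625 and Gm26495 within it.

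**Figure D2:**
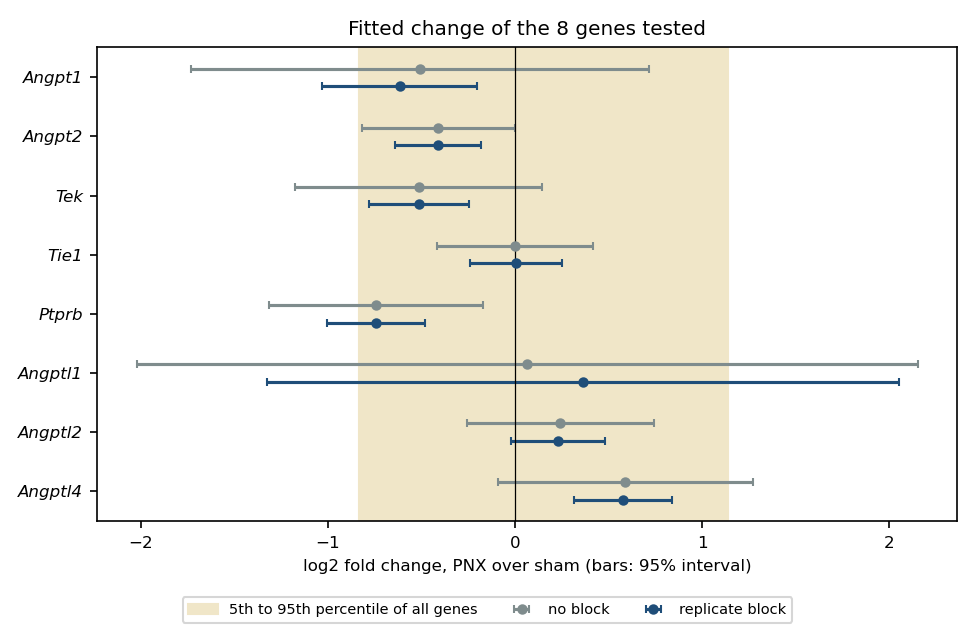
Fitted log2 fold change of PNX over sham (horizontal axis) for the 8 genes tested, without the block in grey and with the replicate block in blue, with 95% intervals as bars. The shaded band spans the 5th to the 95th percentile of all genes in the blocked fit (-0.83 to 1.14), and all 8 points lie inside it; intervals of Ptprb, Tek, Angpt2 and Angpt1 lie below 0 and that of Angptl4 above 0 with the block.

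Over all genes tested the blocked log2 fold changes had a median of -0.01, and the 5th and 95th percentiles were -0.83 and 1.14, between which all 8 genes lay. Their median was -0.20 with the block and -0.21 without it. All 3 libraries of one group lay apart from all 3 of the other for Angpt2, Tek, Ptprb and Angptl4, 4 of the 8 genes, as for 36.7% of all genes (18.8% higher and 17.9% lower in PNX).

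Of the angiopoietin-like genes, Angptl4 was higher after PNX. Its level was 17.5, 17.4 and 14.6 CPM in sham and at 29.4, 29.6 and 18.8 CPM in PNX. Each PNX library lay above each sham library, and PNX replicate 3 was nearest to sham. The means were 16.1 ± 2.26 CPM and 24.2 ± 7.28 CPM (SD, 2 samples each). The edgeR log2 fold change was 0.59 without the block (SE 0.26, adjusted p = 0.465) and 0.58 with it (SE 0.11, 95% interval 0.31 to 0.84, adjusted p = 0.0117), which is 1.49 times the sham level. The difference was 0.73 in the earlier deposit and 0.39 in the later one, and all 10 blocked fits had an adjusted p under 0.05. Angptl4 lies at chr17:33773750-33781830 (minus strand).

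Angptl2, a secreted protein linked to inflammation and tissue remodelling, was higher in 2 of the 3 PNX libraries. It was at 62.7, 64.4 and 62.1 CPM in sham and at 86.0, 86.8 and 62.2 CPM in PNX, where replicate 3 lay within the sham range. The blocked edgeR log2 fold change was 0.23 (SE 0.11, 95% interval -0.02 to 0.48, adjusted p = 0.176), with 0.42 in the earlier deposit and 0.03 in the later one. Angptl2 (chr2:33216069-33247717, plus strand) lies within Ralgps1 on the opposite strand, and Ralgps1 had a log2 fold change of -0.01 (edgeR, blocked, adjusted p = 0.949).

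Angptl1 had 4, 5 and 7 counts in sham and 12, 7 and 2 in PNX. The groups overlapped, and the ratio of PNX to sham was 1.44 with a 95% interval of 0.715 to 2.95 from counting error alone. No difference was detectable at this depth. Angptl1 (chr1:156838562-156861078, plus strand) lies within Ralgps2 on the opposite strand, which was lower in PNX (log2 fold change -0.52, edgeR, blocked, adjusted p = 0.00499), and it shares 465 of 2841 exon bases with Gm37802.

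**Figure D3:**
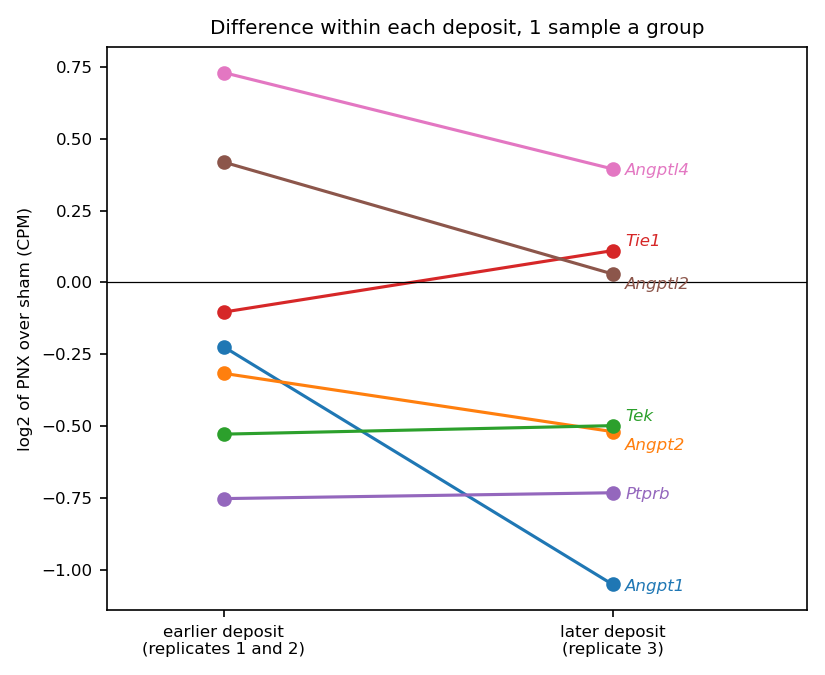
Log2 ratio of PNX to sham CPM (vertical axis) in the earlier deposit (replicates 1 and 2, summed) and the later deposit (replicate 3), joined by a line for each of 7 genes. There is 1 sample a group at each point and hence no error; Tek and Ptprb lie nearly level, Angpt1 runs from -0.22 to -1.05, and Tie1 crosses 0.

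Ratios of counts within a library, which do not depend on scaling between libraries, compared receptors and ligands directly. The ratio of Tie1 to Tek was 0.869, 0.875 and 1.0034 in sham and 1.17, 1.17 and 1.53 in PNX, without overlap, a log2 difference of 0.52. The printed ratios are of the transcript with most counts and were not scaled by length, so a ratio is read only between groups. Log2 differences and tests used counts summed per symbol, and the difference for Tie1 to Tek was 0.52 either way. The ratio of Ptprb to Tek was 2.57, 2.54 and 2.73 in sham and 2.20, 2.16 and 2.32 in PNX, also without overlap, a log2 difference of -0.23. Ptprb was therefore lower relative to Tek as well. The ratio of Tek to Pecam1 was 0.482, 0.486 and 0.446 in sham against 0.345, 0.343 and 0.299 in PNX, a log2 difference of -0.53. The ratio of Tek to Cdh5 differed by -0.36, but its libraries overlapped, at 0.330 to 0.400 in sham and 0.242 to 0.331 in PNX. The ratio of Angpt2 to Angpt1 was 0.590, 0.637 and 0.837 in sham and 0.563, 0.586 and 1.21 in PNX, and the difference had opposite signs in the deposits, -0.09 and 0.53. The ratio of Angpt2 to Tek also overlapped, at 0.0434 to 0.0573 in sham and 0.0494 to 0.0565 in PNX.

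The exact two-sided permutation test over 4 samples cannot give a p below 0.333, so it could not reach the threshold for any of the 6 ratios. It gave 0.333 for Tie1 to Tek, Ptprb to Tek, Tek to Pecam1 and Tek to Cdh5 (0.5 adjusted over the 6) and 1 for the remaining pair. With 6 libraries the smallest exact p is 0.1, which the first 3 of these reached (0.2 adjusted).

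**Figure D4:**
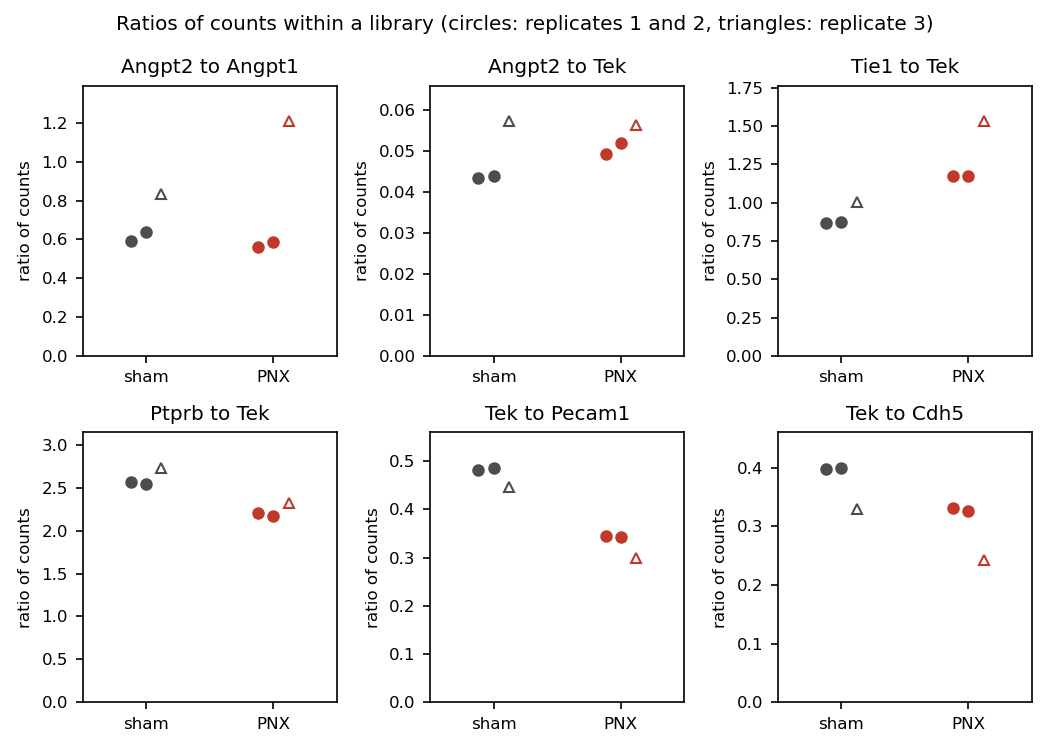
Ratio of counts within each library (vertical axis from 0, no unit) for 6 pairs of genes in sham (grey) and PNX (red), with circles for replicates 1 and 2 and triangles for replicate 3. Tie1 to Tek lies higher and Ptprb to Tek and Tek to Pecam1 lie lower in all 3 PNX libraries, while the other panels overlap.

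A further 83 genes of the pathway, in 5 lists, were read from the same fits, and 82 could be tested. Without the block 0 of them had an adjusted p under 0.05. With the block 10 were higher and 13 lower at an adjusted p under 0.05, and 59 were not under it, against 11.5% higher and 10.1% lower among all genes. By the study's thresholds 3 of the 82 were called with the block, Angptl7, Twist1 and Mmp14, all higher. Among all genes 5.12% were called by that rule (3.89% higher and 1.23% lower), so the count is not above that share.

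The list of other angiopoietin-like genes had 4 genes. With the block 1 was higher (edgeR adjusted p under 0.05, against 11.5% of all genes). Angptl7, a secreted protein best known in the eye, was at 0.881, 1.13 and 2.05 CPM in sham and at 16.7, 16.4 and 26.1 CPM in PNX, the groups lying far apart. Its blocked edgeR log2 fold change was 3.88 (SE 0.14, 95% interval 3.55 to 4.22, adjusted p = 1.32e-05), or 14.8 times the sham level, and without the block the adjusted p was 0.0750. Angptl7 (chr4:148495183-148500460, minus strand) lies inside Mtor on the opposite strand with 0 shared exon bases. Angptl8 and Angptl6 had blocked log2 fold changes of 0.32 and -0.10 (edgeR adjusted p = 0.395 and 0.711).

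Of 27 genes of Tie2 signalling, 2 were higher and 4 lower with the block, and the median log2 fold change was -0.06. By that rule (edgeR adjusted p under 0.05), 11.5% of all genes were higher and 10.1% lower. Dok2, an adaptor that binds activated Tie2, went from 7.19 ± 1.95 to 13.8 ± 0.852 CPM (means ± SD of 2 samples, log2 fold change 0.98, edgeR adjusted p = 0.0035). Nos3, the nitric oxide synthase of ECs, went from 44.1 ± 12.8 to 63.6 ± 0.0574 CPM (0.55, edgeR adjusted p = 0.0314). The lower genes included the adaptors Grb7 (log2 fold change -0.84, edgeR adjusted p = 0.0150) and Grb14 (-0.72, edgeR adjusted p = 0.00244). Foxo1, a transcription factor restrained by Tie2 signalling that drives Angpt2, was named after its values were seen. It was at 61.8 to 68.8 CPM in sham and 43.4 to 53.6 CPM in PNX (log2 fold change -0.43, edgeR, blocked, adjusted p = 0.0110).

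Of 13 partners of Tie2 and matrix proteins, 5 were higher and 0 lower with the block, and the median log2 fold change was 0.25. The shares of all genes by that rule (edgeR adjusted p under 0.05) were 11.5% higher and 10.1% lower. Mmp14, a membrane protease that can shed Tie2, was at 43.9, 43.9 and 48.6 CPM in sham and at 135, 136 and 169 CPM in PNX (blocked edgeR log2 fold change 1.71, SE 0.09, adjusted p = 3.72e-05, and 0.0738 without the block). Ctsl and Adam15, further proteases, had log2 fold changes of 0.66 and 0.65 (edgeR, blocked, adjusted p = 0.0022 and 0.01002). The lowest were the phosphatase gene Ptprk and the integrin gene Itgb5, at -0.33 and -0.17, neither under an edgeR adjusted p of 0.05.

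Of 22 regulators of Tek and Angpt2, 2 were higher and 5 lower with the block, and the median log2 fold change was -0.20. By that rule (edgeR adjusted p under 0.05), 11.5% of all genes were higher and 10.1% lower. Twist1, a transcription factor of mesenchymal cells, was at 0.0868, 0.0279 and 0.0297 CPM in sham (7, 2 and 1 counts) and at 0.659, 0.823 and 0.905 CPM in PNX (blocked edgeR log2 fold change 3.84, SE 0.47, adjusted p = 0.0018). Hif1a, a transcription factor of low oxygen, had 0.43 (edgeR adjusted p = 0.0101), while its relative Epas1, abundant in ECs, had -0.55 (edgeR adjusted p = 0.0250). Gata2, an EC transcription factor, was at 161 to 208 CPM in sham and 117 to 135 CPM in PNX (log2 fold change -0.55, edgeR adjusted p = 0.00673).

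Of 16 genes tested around the lipase that Angptl4 inhibits, 0 were higher and 4 lower with the block, and the median log2 fold change was -0.22. The shares of all genes by that rule (edgeR adjusted p under 0.05) were 11.5% higher and 10.1% lower. Gpihbp1, which holds lipoprotein lipase at the surface of capillary ECs, was at 168, 165 and 113 CPM in sham and at 107, 106 and 64.8 CPM in PNX (log2 fold change -0.72, edgeR, blocked, adjusted p = 0.00126). Hilpda, a lipid droplet protein induced by low oxygen, had -0.71 (edgeR, blocked, adjusted p = 0.00157). Ppard and Plin2, a receptor and a droplet protein that respond to fatty acids, had 0.23 and 0.12 (edgeR, blocked, adjusted p = 0.131 and 0.401).

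**Figure D5:**
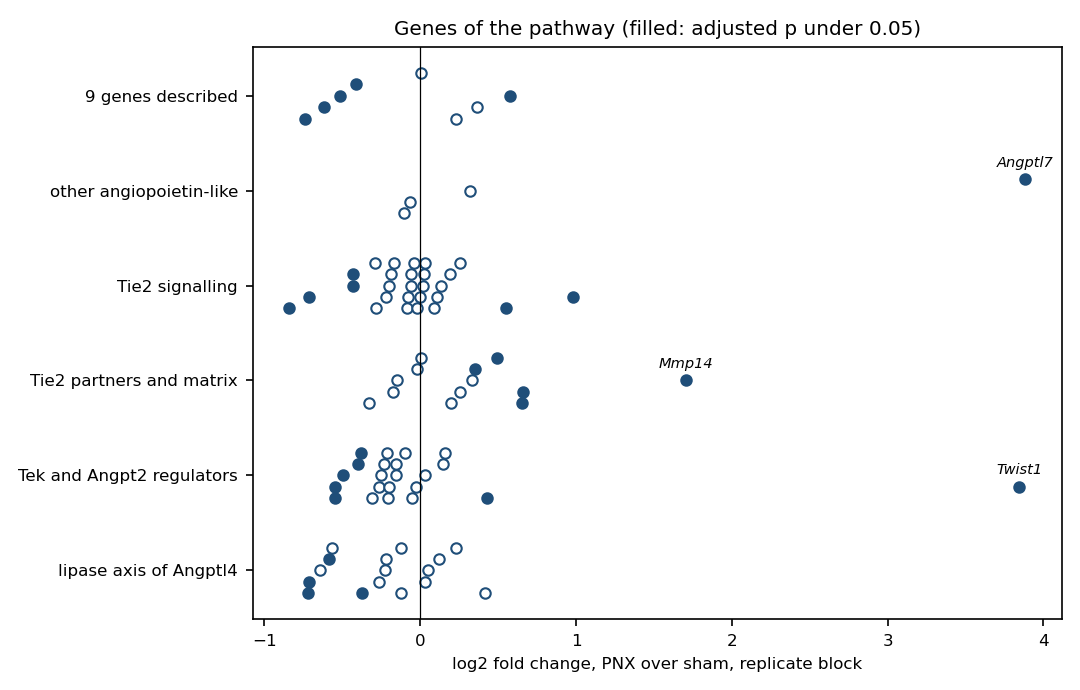
Blocked log2 fold change of PNX over sham (horizontal axis) of the 8 of 9 genes tested and of the 5 pathway lists (rows), 1 point a gene, filled at an edgeR adjusted p under 0.05. Angptl7, Twist1 and Mmp14 lie far to the right, and the remaining genes of the lists lie within 1 of 0.

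Markers of other cells moved with the groups, and in bulk ECs fewer cells of a type and less RNA per cell cannot be told apart. Summed levels of marker lists used counts summed over transcripts. Reads of genes with several transcripts therefore entered more than once, and a sum is read only between libraries. The EC markers, 14 genes, had 0 higher and 0 lower with the block at an adjusted p under 0.05, a median log2 fold change of -0.17, and a summed level of 9136 to 11376 CPM in sham and 8582 to 9907 CPM in PNX. Markers of alveolar epithelium were lower for 11 of 11 genes, from 7327 to 9954 CPM summed in sham to 2479 to 6808 CPM in PNX. PNX replicate 3, lowest in Angpt1, had the lowest sums of epithelial (2479 CPM), EC (8582 CPM) and pericyte and smooth muscle markers (513 CPM). Its sums of mesothelial, platelet and cell division markers were the highest of all libraries. Markers of fibroblasts were higher for 9 of 12 genes and lower for 1, at 3682 to 3876 CPM in sham and 6647 to 6709 CPM in PNX. Those of pericytes and smooth muscle, a known source of Angpt1, were higher for 2 of 14 and lower for 0, with overlapping sums of 526 to 673 and 513 to 700 CPM. Macrophage markers were higher for 8 of 10 and lower for 1 (2381 to 4386 CPM and 3223 to 4274 CPM), mesothelial markers for 5 of 6 and 0 (158 to 383 CPM and 328 to 856 CPM), and platelet markers for 2 of 9 and 0 (67.5 to 92.0 CPM and 93.6 to 96.3 CPM). Adipocyte markers were higher for 5 of 9 and lower for 1 (286 to 423 CPM and 316 to 367 CPM). Most of the adipocyte sum was Lpl (241 to 350 CPM in sham and 240 to 297 CPM in PNX). Most of the macrophage sum was Lyz2 (1978 to 3549 CPM in sham and 2275 to 3047 CPM in PNX). Those sums therefore say little of the other genes on their lists. Of the adipocyte list, Adipoq, Lep and Pck1 were at 0 in at least 1 library. Adipoq had 1, 1 and 0 counts in sham and 83, 93 and 17 in PNX. Pck1 had 1, 6 and 0 counts in sham and 103, 91 and 19 in PNX, and Lep had at most 2 counts in any library. Lymphatic EC markers were higher for 2 of 8 and lower for 1, at 596 to 1219 and 670 to 923 CPM. Among all genes 11.5% were higher and 10.1% lower by this rule. The part of these cells in the results was not tested.

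Among 9 genes of tip cells, the leading cells of new vessels in which Angpt2 is typically high, 2 were higher and 4 lower with the block. Among all genes 11.5% were higher and 10.1% lower at an adjusted p under 0.05. By the study's thresholds 1 tip cell gene was called higher and 1 lower. Esm1 had a log2 fold change of -1.91, while Nid2 went from 14.8 to 36.4 CPM (means of 2 samples). All 16 genes of cell division were higher, with a median of 2.98. Their level, summed in the same way as the marker lists, was 112 to 203 CPM in sham and 1032 to 1469 CPM in PNX.

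Genes with a pattern most like each of 4 members were found by the root mean square difference in mean-centred log2 CPM over the 4 samples, among 14152 genes. For Tek they included Wars (0.018) and Dnajc28 (0.021). Ptprb ranked 400 for Tek, at 0.124. For Tie1 they were Fubp3 (0.006), Baiap2 (0.007) and Mpdz (0.011), for Angpt2 Herpud1 (0.010), Atp1b1 (0.013) and Colgalt2 (0.013), and for Angpt1 Cxcl14 (0.039), Pcolce2 (0.055) and Lyz1 (0.055). Each likeness rests on 4 points, and the genes were picked for it.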

How the data were processed

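RNA of CD31-selected lung ECs was sequenced by the authors as 3 sham and 3 PNX libraries. STAR and mm10 are listed in the submitters' processing notes, and for the counting rule, strand setting and annotation release nothing is stated in these sources. The authors deposited whole-number counts for each of 33068 transcripts, with FPKM (per kilobase, scaled by library), which was not used, and TPM, used only to compare levels between genes. Counts were summed per symbol. Positions and overlaps are from GENCODE vM21.

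Replicates 1 and 2 of a group were summed, because their counts differed by little more than counting error. Tests used edgeR 4.0.16 (filterByExpr, TMM), with DESeq2 1.42.0 and limma 3.58.1 as alternatives, and thresholds of the study. The scripts were also run on simulated data as a check of the code, which says nothing of these samples. In both groups, replicates 1 and 2 carry a re-used mark in their titles, which gave the replicate block. Over 12114 genes, deviations of same-deposit samples correlated (r = 0.797, rho = 0.786). Promoter motifs were searched on both strands. Beside the ETS core, a longer ETS motif (CCGGAAG, in 6.91% of promoters), a forkhead motif (GTAAACA, 3.17%), a GATA motif (AGATAA, 9.99%) and an E-box (CACGTG, 6.02%) had 0 matches in the windows of the 5 members in the table.

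All 9 members were named, and pathway genes were named if called or if among the 2 highest and 2 lowest of a list with at least 50 counts a library. Nearest patterns needed a mean of at least 1 CPM. Members and lists were chosen with earlier results of these data known. Alternatives added later were the blocked fit on the top transcript, 6 libraries with 1 left out, a blocked threshold of 0.05 with the fold limit, and each deposit alone for the ratios. The labels do not say that libraries came from separate isolations, so p-values speak only of these samples. In the blocked fits they rest largely on variance estimated over all genes. The marker Muc16 was not matched. Single values of some genes that this rule names are not reported here.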

Additional observations from a re-analysis of the deposited data

Results flagged for a closer look

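Values with opposite signs in the 2 deposits were marked for a closer look. The difference between the deposits was not tested, since each has 1 sample a group. On the log2 scale of PNX over sham, Tie1 had -0.10 in the earlier deposit and 0.11 in the later one. Angpt4 had -0.32 and 0.62 and Angptl1 had 1.17 and -1.60, both on counts of 12 or fewer per library. The ratio of Angpt2 to Angpt1 differed by -0.092 and 0.53, and that of Angpt2 to Tek by 0.21 and -0.021.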

How the results depend on the processing

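With the replicate block, 849 genes were called, against 0 without it, and 3584 at an adjusted p under 0.05 and any fold or 1186 with the fold limit. The other blocked fits called 1104 genes (6 libraries), 813 (DESeq2), 624 (DESeq2 size factors), 646 (upper quartile), 629 (library size alone) and 727 (top transcript). The share of calls that were higher was 645 of 849 with TMM but 540 of 624, 548 of 646 and 550 of 629 under those 3 scalings. Without the block, 409 genes were called over 6 libraries, 572 with DESeq2 and 921 with DESeq2 over 6 libraries. Leaving out 1 library gave 0 to 2 without the block, 485 to 863 with it (485 without PNX replicate 1, 671 and 668 without sham replicate 1 or 2), and 0 to 517 over 6 libraries. The 6-library count was 0 without sham replicate 1, sham replicate 2 or PNX replicate 1 and 49 without PNX replicate 2.

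Members called by the study's thresholds numbered 0 throughout, and 5 at an adjusted p under 0.05 and any fold with the block. Pathway genes called were 3 or 4 in the blocked, 6-library and DESeq2 fits, 23 at an adjusted p under 0.05 and any fold, and 1 to 4 where a library was left out and any were called.

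The sign of Tie1 turned in the later deposit alone (0.11) and in 16 other settings, with log2 fold changes from 0.0018 to 0.108. They were 0.0031 with the block at either threshold, 0.0019 with the block in DESeq2 and with the block and DESeq2 size factors, 0.013 with limma-voom, 0.0055 and 0.0080 with library size alone (without and with the block), and 0.0033 and 0.0068 with the top transcript. They were 0.0074, 0.010 and 0.013 without sham replicate 2 (no block, block, 6 libraries), 0.012 without PNX replicate 3, 0.0018 and 0.0028 without PNX replicate 1 or 2 (block) and 0.108 without sham replicates 1 and 2. Leaving out 1 library without the block gave a range of -0.10 to 0.012 for Tie1, up to 0.93 for Angptl1, -0.72 to 0.0043 for Angpt1 and -0.32 to 0.45 for the Angpt2 to Angpt1 ratio. Angpt1 turned to 0.0043 without PNX replicate 3, and Angptl2 to -0.00016 without PNX replicates 1 and 2. Angptl1 turned to -0.096 and -0.26 with DESeq2 (with and without the block) and to -0.049 without sham replicate 1 over 6 libraries, and was -1.60 in the later deposit alone. The Angpt2 to Angpt1 ratio turned to -0.092 in the earlier deposit and -0.32 without PNX replicate 3, and Angpt2 to Tek to -0.021 in the later deposit. The cause of the turned signs was not tested. Summing transcripts gave 45.6 TPM for Angpt1 and 899.5 TPM for Tek in sham, against 22.8 and 297 TPM for the transcript with most counts. Each of their transcripts is given nearly the same counts, so summing enters the same reads more than once. Depth limits Angpt4 and Angptl1, with 12 or fewer counts a library.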
